A study of Mus musculus with 32 samples.

Results

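The genes described here are 26 genes of cholesterol synthesis and its control by SREBP (sterol regulatory element-binding protein), followed in bone marrow-derived macrophages (BMDM) through a time course of lipopolysaccharide (LPS), a component of the bacterial outer membrane. The members were named by their place in the pathway, and each was represented by the RefSeq transcript with the highest mean count, which gave 26 of the 25067 genes in the table. The RNA-seq libraries came from Nur77-knockout mice (BMDM-Nur77-KO) and their wild-type littermates (BMDM-WT). The knockout mice were bred to lose the nuclear receptor encoded by Nr4a1 in all tissues. For this, C57Bl6/J mice with a Cre driven by the CMV promoter were crossed with mice of a loxP-flanked Nr4a1 allele, and the Cre was bred out again. All mice were males of 6 to 12 weeks, and marrow cells of both genotypes were grown to macrophages for 7 days in medium with 15% L929-conditioned medium. The 8 groups were macrophages of each genotype without LPS (0 h) and after 1, 5 and 18 h of LPS at 100 ng/ml, with 4 libraries a group. The replicates were wells, and the number of mice behind them was not given in the sources used here, so p-values measure only the spread between these libraries, which may be technical.

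Cholesterol is built from acetyl-CoA through mevalonate, isoprenoids, squalene and lanosterol. When sterols in the endoplasmic reticulum are low, the escort protein Scap carries the SREBP precursors to the Golgi, where proteases free the part that enters the nucleus and switches on the enzymes of the pathway. When sterols are plentiful, Insig proteins hold Scap and its cargo back. In macrophages the pathway is known to respond to LPS and interferon, and oxysterols are known to restrain it.

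SREBP acts on promoters at a sterol regulatory element, usually beside sites of the factor NF-Y, which binds the CCAAT box. The stretches before the transcript start are shown for 5 members that were called below and have 1 window in the RefSeq table, namely Hmgcs1, Idi1 and Insig1, which rose with LPS, and Hsd17b7 and Mvk, which were lower in BMDM-Nur77-KO at 18 h. Of the other members lower at 18 h, Dhcr7 has 3 windows, none of them shown, and Sqle, Stard4 and Fdps are named only. Capitals mark matches of TCACNCCAC (sterol regulatory element) and CCAAT on either strand. The stretches are from RefSeq on build GRCm38.p6 and run 5′ to 3′ on the strand of the gene: Hmgcs1 on chr13:119690101-119690350 (plus strand), Idi1 on chr13:8885356-8885605 (plus), Insig1 on chr5:28071162-28071411 (plus), Hsd17b7 on chr1:169969243-169969455 (minus) and Mvk on chr5:114444019-114444263 (plus).
Hmgcs1: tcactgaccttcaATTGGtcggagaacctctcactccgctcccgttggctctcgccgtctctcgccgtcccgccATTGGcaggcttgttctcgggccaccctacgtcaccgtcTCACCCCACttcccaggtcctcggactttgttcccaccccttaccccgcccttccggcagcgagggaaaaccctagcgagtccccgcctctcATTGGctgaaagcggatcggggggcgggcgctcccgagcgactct
Idi1: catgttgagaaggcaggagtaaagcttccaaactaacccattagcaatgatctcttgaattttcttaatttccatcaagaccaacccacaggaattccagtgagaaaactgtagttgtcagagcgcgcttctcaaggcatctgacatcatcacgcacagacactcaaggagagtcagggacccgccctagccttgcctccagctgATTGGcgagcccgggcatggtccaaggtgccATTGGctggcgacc
Insig1: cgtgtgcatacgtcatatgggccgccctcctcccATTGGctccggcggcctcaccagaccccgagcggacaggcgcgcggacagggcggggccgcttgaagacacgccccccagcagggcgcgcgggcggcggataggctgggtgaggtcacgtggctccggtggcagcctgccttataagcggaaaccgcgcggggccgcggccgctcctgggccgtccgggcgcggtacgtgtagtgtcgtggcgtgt
Hsd17b7: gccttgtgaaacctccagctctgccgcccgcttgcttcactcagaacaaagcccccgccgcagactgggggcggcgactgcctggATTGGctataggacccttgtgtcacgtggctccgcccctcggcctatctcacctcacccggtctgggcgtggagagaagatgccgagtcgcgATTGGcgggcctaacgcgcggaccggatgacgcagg
Mvk: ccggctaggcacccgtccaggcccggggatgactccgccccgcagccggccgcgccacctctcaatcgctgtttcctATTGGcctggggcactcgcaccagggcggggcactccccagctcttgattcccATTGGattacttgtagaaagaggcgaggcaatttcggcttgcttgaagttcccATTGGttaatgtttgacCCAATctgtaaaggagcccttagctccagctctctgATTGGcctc
Hmgcs1 holds the TCACNCCAC match, with its leftmost base 137 bases before the start, and 3 CCAAT matches. Mvk holds 5 CCAAT matches, Idi1 and Hsd17b7 hold 2 each, and Insig1 holds 1. RefSeq promoter windows from 250 bases before to 50 bases after the start were found for 22 of the 26 members. CCAAT was present in 20 of these 22 (90.9%) and in 41.1% of 27025 genes with a window. The GC box GGGCGG was present in 20 of 22 against 38.2% of all genes, and TCACNCCAC in 1 of 22 (4.5%) against 1.44%. These matches are descriptions of letters and not of binding.

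Library totals ran from 8742362 to 15780926 counts, and values below are CPM (counts scaled to library size with TMM) unless RPKM (the same divided by transcript length) is named. Nr4a1, the targeted gene, was at 19.4, 15.5, 25.7 and 18.1 CPM in BMDM-WT and at 4.92, 4.61, 4.45 and 7 CPM in BMDM-Nur77-KO at 0 h. At 1 h of LPS it was at 484, 485, 358 and 421 CPM and at 242, 180, 146 and 193 CPM, so that it rose in both genotypes (log2 fold changes of 4.48 and 5.18) and the knockout libraries held a fitted 43.6% of the wild-type level. The genotypes did not overlap at 0, 1 and 5 h but did at 18 h, where all libraries held 0 to 5 counts. In these counts the knockout is thus a lower level of Nr4a1 signal and not its absence, and the counts do not show whether a working protein could be made. The paper reports that genotyping PCR of the mice showed the deletion. The 7 macrophage markers summed to between 10900 and 18400 CPM in every library, and at 18 h the sum was lower in BMDM-Nur77-KO (10900 to 12300 CPM) than in BMDM-WT (13800 to 14400 CPM). The 5 neutrophil markers summed to 4.39 to 23.9 CPM, those of B cells, fibroblasts and dendritic cells each to under 3 CPM, and those of erythroid and mast cells to under 1 CPM, and their part in the results was not tested. The 3 libraries that deviated most from their group means along the GC content of transcripts are called GC-linked below. The Spearman correlation over 11272 genes was −0.651 in BMDM-Nur77-KO replicate 1 at 5 h. It was −0.647 in BMDM-Nur77-KO replicate 4 at 18 h and −0.654 in BMDM-WT replicate 3 at 18 h. Other libraries deviated nearly as much the other way, such as BMDM-Nur77-KO replicate 4 at 0 h (0.6) and at 5 h (0.583). Leaving out the GC-linked libraries therefore does not remove all deviation along GC content. In BMDM-Nur77-KO replicate 1 at 5 h, Srebf1 was at 13.4 CPM against 24.5 to 38.3 in the other 3 libraries of its group, and Hmgcs1 was at 240 CPM against 139 to 169. Values without the GC-linked libraries are given below for the results that turn on them.

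Before LPS, the members of BMDM-WT spanned from 1.47 ± 0.302 RPKM for Tm7sf2, a sterol C14-reductase, to 72 ± 10.7 RPKM for Fdft1, squalene synthase (mean ± SD, n = 4). Behind Fdft1 stood Msmo1, a methylsterol oxidase, at 34.1 ± 1.76 RPKM, and Insig1 at 19.6 ± 1.67 RPKM. Ebp, a sterol isomerase, was at 17.1 ± 1.75 RPKM, Hmgcs1, the cytosolic HMG-CoA synthase, at 16.8 ± 1.06 RPKM and Srebf2, which encodes the SREBP that mainly drives this pathway, at 16.4 ± 1.32 RPKM, and these 3 did not differ beyond their spread. The low end held Hsd17b7, a 3-ketosteroid reductase, at 1.74 ± 0.208 RPKM, and Idi1, isopentenyl-diphosphate isomerase, at 1.83 ± 0.241 RPKM, which also lay within each other's spread. Fdft1 is uncertain, because its exons share 774 bases with the far more abundant Ctsb on the other strand, and whether the counting used strand was not given in the sources used here. Also on the other strand, Cyp51 shares 166 exonic bases with Akap9, Ggps1 257 with Arid4b and Srebf1 109 with Rai1. These neighbours had mean counts of 478, 489 and 219, so the same doubt about strand applies to these members. Fdps shares 1124 exonic bases, and Tm7sf2 shares 532, with a neighbour on the same strand, so their counts could hold reads of that neighbour.

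**Figure D1:**
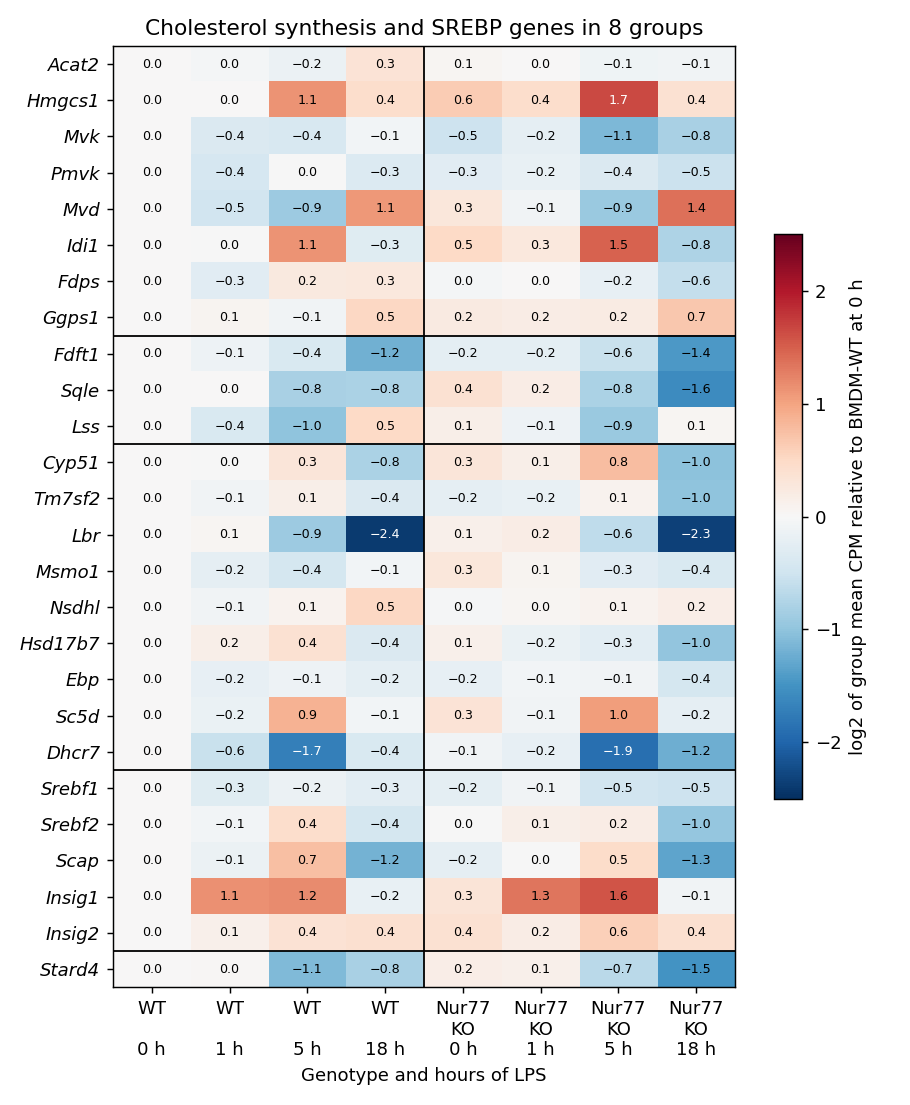
Heat map of the 26 members (rows, in pathway order, with lines between mevalonate and isoprenoid enzymes, squalene to lanosterol, lanosterol to cholesterol, SREBP control, and sterol transfer) over the 8 groups (columns). Each cell is the log2 of the group mean CPM relative to BMDM-WT at 0 h, as the colour scale shows. Insig1 was high at 1 and 5 h in both genotypes, and Lbr was lowest at 18 h in both. Sqle, Stard4, Dhcr7 and Hsd17b7 were darker blue in BMDM-Nur77-KO at 18 h than in BMDM-WT.

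In BMDM-WT, 1 h of LPS raised Insig1 and no other member past the limits of the test. A difference in LPS exposure was called where the edgeR adjusted p (from the quasi-likelihood test, adjusted by Benjamini-Hochberg over 11283 genes) was under 0.05 and the log2 fold change was over 1 either way. Insig1, the sterol sensor that retains Scap in the endoplasmic reticulum, was at 56.7, 52.4, 46.6 and 55.4 CPM at 0 h and at 121, 118, 119 and 108 CPM at 1 h. The groups did not overlap, and the log2 fold change was 1.14 ± 0.08, adjusted p = 4.3e-13. The count was 1 of 26 members higher and 0 lower by edgeR and by DESeq2 alike, against 3.43% and 1.76% of all genes tested. At an unadjusted p under 0.05, 6 were lower, against 16.9%. With the adjusted p alone, 2 members were lower at 1 h, a share below the 10.2% of all genes, namely Lss at −0.38 ± 0.13, adjusted p = 0.029 and Dhcr7 at −0.55 ± 0.16, adjusted p = 0.014.

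At 5 h in BMDM-WT 3 of 26 members rose and 3 fell, shares below the 15.7% higher and 18.0% lower over all genes, so the counts do not set the pathway apart. The median log2 fold change of the members was −0.04, against −0.14 over all genes. The 3 that rose were Insig1 and the early enzymes Hmgcs1 and Idi1. Hmgcs1, which makes the HMG-CoA that feeds mevalonate, went from 52.2, 59.7, 53.3 and 53.2 CPM to 129, 112, 109 and 126 CPM, a log2 fold change of 1.12 ± 0.15, adjusted p = 5.4e-08. Idi1, which converts isopentenyl to dimethylallyl diphosphate, went from 6.56, 5.29, 4.84 and 5.44 CPM to 15.2, 9.18, 10.9 and 12.8 CPM, a log2 fold change of 1.12 ± 0.17, adjusted p = 9.8e-07. Insig1 remained high at 121, 111, 118 and 127 CPM, a log2 fold change of 1.18 ± 0.08, adjusted p = 3e-14. In all 3 the lowest library at 5 h lay above the highest at 0 h. The call of Idi1 was lost without BMDM-WT replicate 1 at 5 h, where its log2 fold change was 0.99, and after the GC correction, where it was 0.98, both just under the limit.

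The 3 that fell at 5 h act later or move the product, but the calls do not stand for whole steps. The median log2 fold change was −0.04 for mevalonate and isoprenoid enzymes, −0.80 from squalene to lanosterol and 0.10 from lanosterol to cholesterol. Dhcr7, the last reductase before cholesterol, went from 17.5, 14.4, 18.3 and 19.3 CPM to 4.89, 7.1, 5.44 and 3.78 CPM, a log2 fold change of −1.71 ± 0.18, adjusted p = 1.3e-09. Stard4, a sterol carrier of the cytosol, went from 27.6, 28.8, 24.4 and 25.2 CPM to 13, 13.7, 11.1 and 11.6 CPM, a log2 fold change of −1.10 ± 0.10, adjusted p = 8.2e-11. Lss, lanosterol synthase, went from 12.3, 14, 12 and 12.9 CPM to 6.15, 7.1, 5.33 and 7.09 CPM, to a fitted 50% of the 0 h level (SE 0.14 on the log2 scale, adjusted p = 1.5e-07). None of these overlapped between 0 and 5 h, but Lss sat at the limit of the call. Its log2 fold change was −0.95 without BMDM-WT replicate 2 at 0 h, −0.98 without replicate 1 at 5 h and −0.92 without replicate 3 at 5 h, and it was just short of the limit without replicate 4 at 0 h. The call of Lss was also lost under 5 of 8 other settings, among them DESeq2 (−0.92, so that DESeq2 called 3 higher and 2 lower) and the GC correction (−0.78). Sqle, squalene epoxidase and a rate-limiting step of the sterol branch, was lower by less than the limit (−0.80 ± 0.12, adjusted p = 5.3e-07), as were Lbr, a sterol C14-reductase of the nuclear envelope (−0.91 ± 0.10, adjusted p = 1.2e-09), and Mvd, mevalonate diphosphate decarboxylase (−0.91 ± 0.23, adjusted p = 0.001). Sc5d, a lathosterol oxidase, and Scap were higher by less than the limit, at 0.87 ± 0.15, adjusted p = 6.1e-06 and 0.75 ± 0.17, adjusted p = 0.00033.

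By 18 h in BMDM-WT the early rise had ended for Insig1 and Idi1. The members called at 18 h were 1 higher and 3 lower, against 13.1% and 14.3% of all genes, and the median of the members was −0.25 against −0.01 over all genes. Mvd was at 5.11, 5.03, 5.75 and 5.51 CPM at 0 h and at 12, 12.3, 9.22 and 11.7 CPM at 18 h, a log2 fold change of 1.08 ± 0.19, adjusted p = 1.2e-05. The kept transcript of Mvd is a non-coding form whose mean count is near that of the coding form. Lbr went from 35.2, 34, 35.2 and 35.4 CPM to 6.41, 6, 7.31 and 7.08 CPM, a log2 fold change of −2.38 ± 0.11, adjusted p = 1.4e-18, the largest fall among the members in BMDM-WT at 18 h. Scap, the SREBP escort, went from 35.3, 34.6, 35 and 37.3 CPM to 15.6, 16.2, 14.4 and 16.6 CPM, a log2 fold change of −1.18 ± 0.18, adjusted p = 1.3e-06. Fdft1 went from 270, 209, 291 and 294 CPM to 122, 124, 101 and 115 CPM, a log2 fold change of −1.20 ± 0.10, adjusted p = 4e-12, while its antisense neighbour Ctsb was at −0.14 ± 0.11, adjusted p = 0.25. For these 4 members the groups did not overlap, and the 4 calls held when any 1 library was left out. Between 5 and 18 h, 3 members rose and 5 fell against 15.9% and 14.3% of all genes, and these 8 calls also held without any 1 library. Mvd (1.99), Lss (1.49) and Dhcr7 (1.33) rose on the log2 scale, and Scap (−1.93), Lbr (−1.47), Idi1 (−1.43), Insig1 (−1.36) and Cyp51, lanosterol demethylase (−1.09), fell.

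Between the genotypes, the comparison asks how the pathway differs between BMDM-Nur77-KO and BMDM-WT at each time. A member was called here where the edgeR adjusted p was under 0.05 and the log2 fold change was over 0.58 either way. At 0 h the knockout libraries were called higher for 1 member and lower for 0 by edgeR and by DESeq2 alike, against 2.38% and 2.44% of all genes. At an unadjusted p under 0.05, 8 were higher and 3 lower, against 12.4% and 14.5% of all genes. Hmgcs1 was at 52.2, 59.7, 53.3 and 53.2 CPM in BMDM-WT and at 94.2, 77.6, 90.7 and 75.7 CPM in BMDM-Nur77-KO. The groups did not overlap, and the log2 fold change was 0.63 ± 0.14, adjusted p = 0.0034. Without BMDM-Nur77-KO replicate 1 at 0 h it was 0.57, and after correction for GC content it was 0.48, both under the limit. Insig2, the partner of Insig1 in holding back Scap, was higher by less than the limit, at 24.1, 21.2, 20.1 and 23.9 CPM against 28.9, 28.9, 32.3 and 26 CPM (0.38 ± 0.08, adjusted p = 0.0024). Insig1 (0.32 ± 0.08, adjusted p = 0.0055) and Sqle (0.37 ± 0.11, adjusted p = 0.026) were also higher by less than the limit, so 4 members passed the adjusted p alone, against 6.3% of all genes higher. At 0 h the members' log2 fold changes had a Spearman correlation of −0.69 with the GC content of their transcripts (n = 26 genes that share the same 8 libraries, a description), and −0.26 after the GC correction.

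At 1 h 0 members were called higher and 0 lower between the genotypes by edgeR and by DESeq2 alike, against 1.51% and 1.36% of all genes. At an unadjusted p under 0.05, 4 were higher and 1 lower, against 8.58% and 8.5%. The median of the members was 0.14, against −0.00 over all genes, and 23 of 26 lay above 0, against 49.6% of all genes. At 5 h 0 were called higher and 1 lower, against 5.6% and 3.13% of all genes, where DESeq2 called 0 and 2 and an unadjusted p under 0.05 gave 8 and 3, against 21.2% and 17.5%. Hsd17b7, which reduces the 3-keto group after demethylation, was at 9.11, 12, 9.99 and 10.9 CPM in BMDM-WT and at 6.98, 5.62, 6.13 and 7.86 CPM in BMDM-Nur77-KO. The groups did not overlap, and the log2 fold change was −0.66 ± 0.15, adjusted p = 0.0029. A further 7 members were higher by less than the limit at 5 h, with 13.5% of all genes higher in the same way, among them Hmgcs1 (0.54 ± 0.14, adjusted p = 0.0082), Insig1 (0.39 ± 0.08, adjusted p = 0.00066) and Stard4 (0.42 ± 0.11, adjusted p = 0.0064). The highest libraries of Hmgcs1 and Insig1 at 5 h were the GC-linked BMDM-Nur77-KO replicate 1. Without the 3 GC-linked libraries the log2 fold changes were 0.33 for Hmgcs1 (edgeR adjusted p = 0.0056), 0.31 for Insig1 (0.0019) and 0.36 for Stard4 (0.019). The members' log2 fold changes between the genotypes at 5 h had a Spearman correlation of −0.72 with transcript GC content (n = 26, a description). It was −0.35 after the GC correction.

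**Figure D2:**
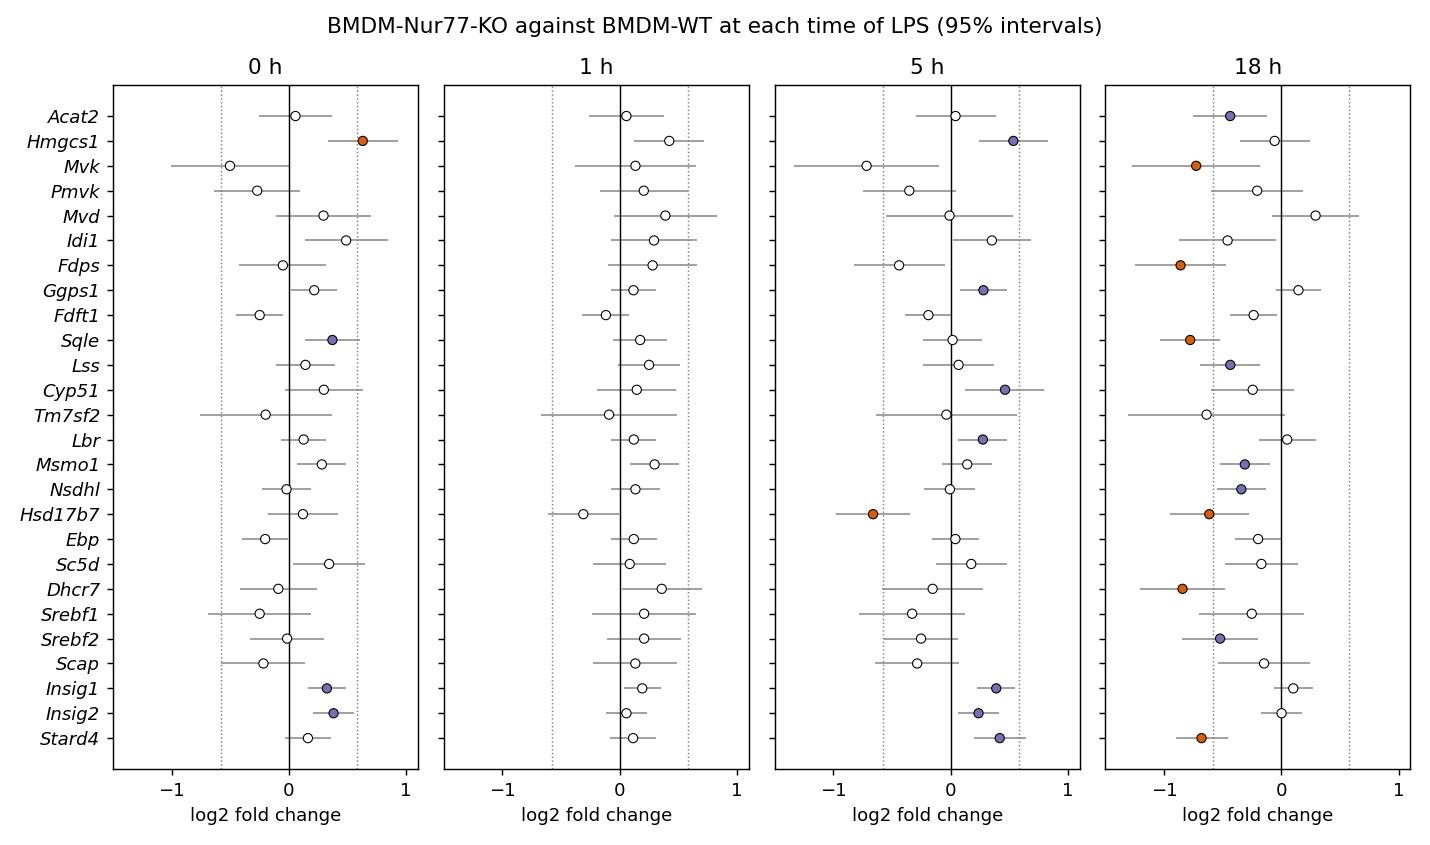
Log2 fold change of BMDM-Nur77-KO against BMDM-WT (horizontal axis) for each member (vertical axis, in pathway order) at 0, 1, 5 and 18 h of LPS, with 95% intervals from the edgeR model and dotted lines at 0.58 either way. Orange points passed the adjusted p and the limit on size, purple points the adjusted p alone, and white points neither. At 18 h there are 6 orange points, all to the left of 0, against 1 orange point at 0 h (Hmgcs1) and 1 at 5 h (Hsd17b7).

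At 18 h of LPS, genes from several steps of the pathway were lower in BMDM-Nur77-KO. The members called were 0 higher and 6 lower by edgeR and by DESeq2 alike, against 5.7% of all genes higher and 4.12% lower, and at an unadjusted p under 0.05 there were 0 higher and 14 lower, against 16.8% and 15.9%. The median of the members was −0.28 against −0.01 over all genes, and 5 of 26 lay above 0, against 48.3% of all genes. The 6 came from the mevalonate branch (Mvk and Fdps), from the squalene step (Sqle), from the late sterol steps (Dhcr7 and Hsd17b7) and from sterol transfer (Stard4). A further 5 members were lower by less than the limit, so that 11 of 26 passed the adjusted p alone against 9.79% of all genes, and 10 members had groups that did not overlap, all of them lower in BMDM-Nur77-KO, where 10.2% of all genes were lower and 10.8% higher without overlap. Without the 3 GC-linked libraries 5 members were called lower, Hsd17b7 no longer among them.

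Sqle (chr15:59315092-59331193, plus strand) was at 19.4, 21, 22.8 and 20.2 CPM in BMDM-WT and at 13.6, 11.7, 12 and 11.4 CPM in BMDM-Nur77-KO at 18 h. Each knockout library lay below each wild-type library, at a fitted 58.3% of the wild-type level and a log2 fold change of −0.78 ± 0.12, adjusted p = 1.6e-05. Stard4 was at 14.3, 14.6, 17.2 and 14.5 CPM in BMDM-WT and at 8.96, 8.91, 9.25 and 10.6 CPM in BMDM-Nur77-KO. All 4 knockout libraries lay below, at 62.4% of the wild-type level and a log2 fold change of −0.68 ± 0.11, adjusted p = 1.4e-05. Fdps (chr3:89093588-89101967, minus strand), farnesyl diphosphate synthase, at the fork between sterols and other isoprenoids, was at 18.7, 14.7, 14.2 and 16.9 CPM in BMDM-WT and at 9.67, 9.63, 8.55 and 7.69 CPM in BMDM-Nur77-KO. Its highest knockout library lay below the lowest wild-type library, at 55.1% of the wild-type level and a log2 fold change of −0.86 ± 0.19, adjusted p = 0.00089. Dhcr7 (chr7:143823167-143848410, plus strand) was at 13.9, 13.2, 14.3 and 11.9 CPM in BMDM-WT and at 8.96, 8.02, 7.57 and 5.24 CPM in BMDM-Nur77-KO. Here too the genotypes were separate, at 55.8% of the wild-type level and a log2 fold change of −0.84 ± 0.17, adjusted p = 0.00052. These 4 calls held in all 8 fits that each left out 1 of the libraries compared, the GC-linked replicates included.

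Hsd17b7 and Mvk were called with less certainty. Hsd17b7 (chr1:169949535-169969242, minus strand) was at 6.59, 6, 6.79 and 5.53 CPM in BMDM-WT and at 5.02, 4.28, 4.21 and 2.78 CPM in BMDM-Nur77-KO. The groups did not overlap and the log2 fold change was −0.61 ± 0.16, adjusted p = 0.0063, but it was −0.47 without BMDM-Nur77-KO replicate 4 and −0.57 without BMDM-WT replicate 3, both under the limit. Mvk (chr5:114444264-114460591, plus strand), mevalonate kinase, was at 3.66, 3.81, 3.04 and 5.01 CPM in BMDM-WT and at 1.97, 2.67, 2.87 and 1.8 CPM in BMDM-Nur77-KO. Again without overlap, the log2 fold change was −0.73 ± 0.26, adjusted p = 0.047, and the call was lost without replicate 1, 2 or 4 of either genotype, with edgeR adjusted p from 0.05 to 0.18.

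**Figure D3:**
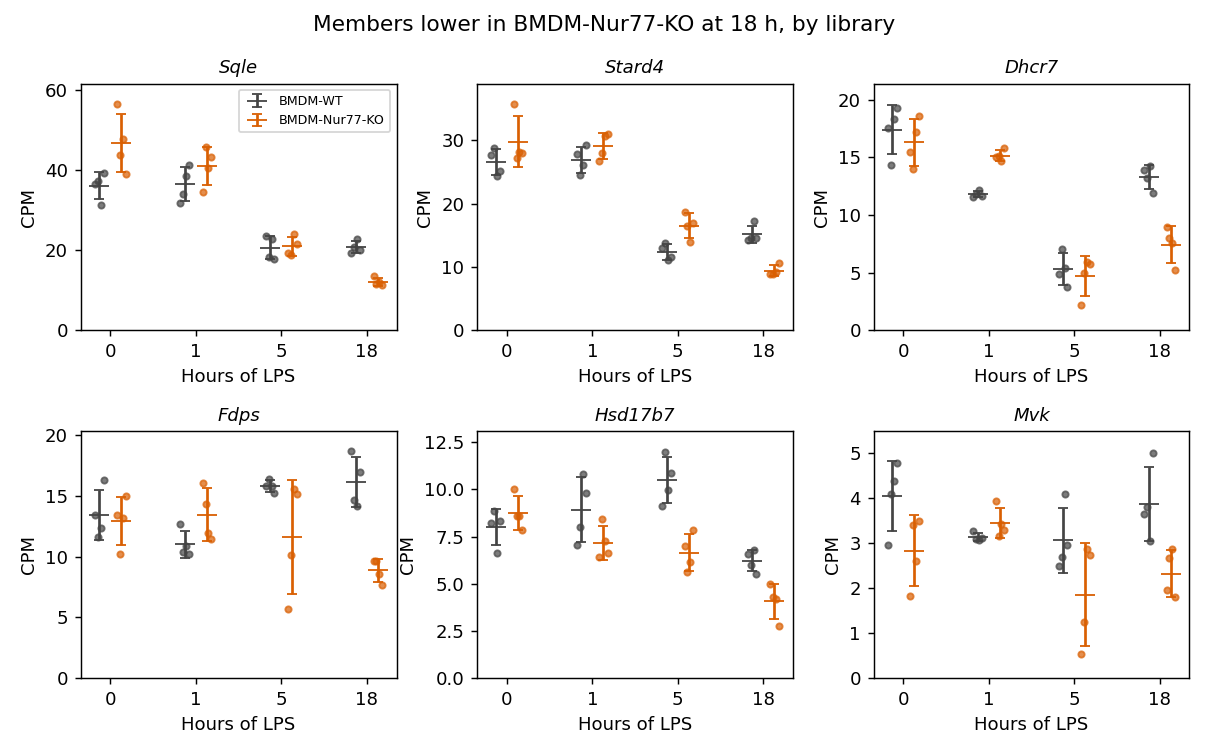
CPM of the 6 members called lower in BMDM-Nur77-KO at 18 h, one panel a gene, against hours of LPS (evenly spaced categories). Points are libraries, and bars are the mean and SD of 4 libraries (grey BMDM-WT, orange BMDM-Nur77-KO). At 18 h the Sqle libraries of BMDM-Nur77-KO sit between 11.4 and 13.6 CPM and those of BMDM-WT between 19.4 and 22.8 CPM, while at 5 h the same genotypes overlap.

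The 5 members lower by less than the limit at 18 h include enzymes of several steps. Lss was at 17.9, 19.2, 15.1 and 19.7 CPM in BMDM-WT and at 13.4, 14.6, 11.9 and 13.2 CPM in BMDM-Nur77-KO, without overlap (−0.44 ± 0.12, adjusted p = 0.01). Nsdhl, a sterol dehydrogenase (−0.34 ± 0.10, adjusted p = 0.013), and Acat2, the cytosolic acetoacetyl-CoA thiolase (−0.44 ± 0.15, adjusted p = 0.04), also did not overlap. Msmo1 overlapped, at 62.6, 63.3, 81.4 and 58.7 CPM against 53.6, 50, 50.3 and 60.4 CPM (−0.31 ± 0.10, adjusted p = 0.027). Srebf2 was lower without overlap and is described with the other SREBP genes. Mvd (0.29 ± 0.18, adjusted p = 0.27), Ggps1, geranylgeranyl diphosphate synthase (0.14 ± 0.09, adjusted p = 0.29), Insig1 (0.10 ± 0.08, adjusted p = 0.41), Lbr (0.05 ± 0.12, adjusted p = 0.83) and Insig2 (0.00 ± 0.08, adjusted p = 0.99) had log2 fold changes above 0 and did not pass. The other 10 members had log2 fold changes below 0 and did not pass: Tm7sf2, Idi1, Srebf1, Cyp51, Fdft1, Pmvk, Ebp, Sc5d, Scap and Hmgcs1. At 18 h the GC content of the transcripts and the members' log2 fold changes had a Spearman correlation of −0.2 (n = 26, a description), and 6 members were called lower after the GC correction as well.

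In BMDM-Nur77-KO the response to LPS was like that of BMDM-WT at 1 h in that Insig1 alone rose, from 73.4, 62.6, 67.3 and 61.1 CPM to 133, 142, 125 and 132 CPM (1.01 ± 0.08, adjusted p = 7.8e-12). The counts were 1 higher and 0 lower by edgeR and by DESeq2 alike, against 3.23% and 1.3% of all genes. The unadjusted p was under 0.05 for 3 lower members, against 9.75% of all genes. Insig1 was under the limit without BMDM-Nur77-KO replicate 2 at 0 h (0.98), replicate 4 at 0 h (0.97) or replicate 2 at 1 h (0.98). At 5 h 2 members rose and 4 fell, against 16.0% and 16.6% of all genes. Hmgcs1 (1.03 ± 0.14, adjusted p = 2.2e-07) and Insig1 (1.24 ± 0.08, adjusted p = 7.2e-15) rose. Dhcr7 (−1.77 ± 0.18, adjusted p = 5.6e-10), Mvd (−1.21 ± 0.22, adjusted p = 1.9e-05), Sqle (−1.16 ± 0.12, adjusted p = 3.4e-10) and Lss (−1.07 ± 0.13, adjusted p = 2.4e-08) fell. Without BMDM-Nur77-KO replicate 1 at 5 h the counts were 1 higher and 2 lower, and Hmgcs1, Mvd and Lss were no longer called, with Hmgcs1 at 0.82, Mvd at −0.98 and Lss at −0.97. Hmgcs1 was also under the limit without BMDM-Nur77-KO replicate 2 (0.99) or 4 (0.98) at 0 h.

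At 18 h in BMDM-Nur77-KO 1 member rose and 9 fell, against 15.4% and 16.4% of all genes, and the median of the members was −0.56 against −0.03 over all genes. Sqle went from 56.4, 43.9, 47.7 and 39.1 CPM at 0 h to the 18 h values given above, a log2 fold change of −1.94 ± 0.12, adjusted p = 4.2e-15, where the same change in BMDM-WT was −0.79 ± 0.12, adjusted p = 5.3e-07. Stard4 went from 35.7, 27.1, 28.1 and 28 CPM, a log2 fold change of −1.65 ± 0.10, adjusted p = 6.1e-15, where BMDM-WT had −0.81 ± 0.10, adjusted p = 2.7e-08. Lbr (−2.46), Cyp51 (−1.32), Idi1 (−1.25), Fdft1 (−1.19), Dhcr7 (−1.13), Scap (−1.11) and Hsd17b7 (−1.11) fell as well on the log2 scale, and Mvd rose (1.08). Without the GC-linked BMDM-Nur77-KO replicate 4 at 18 h, Dhcr7 (−0.99), Hsd17b7 (−0.96) and Scap (−0.96) were under the limit, and Mvd (0.96) was without replicate 3. Between 5 and 18 h 1 member rose and 9 fell, against 14.3% in either direction over all genes, with Idi1 at −2.24 and Mvd at 2.29 as the extremes.

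**Figure D4:**
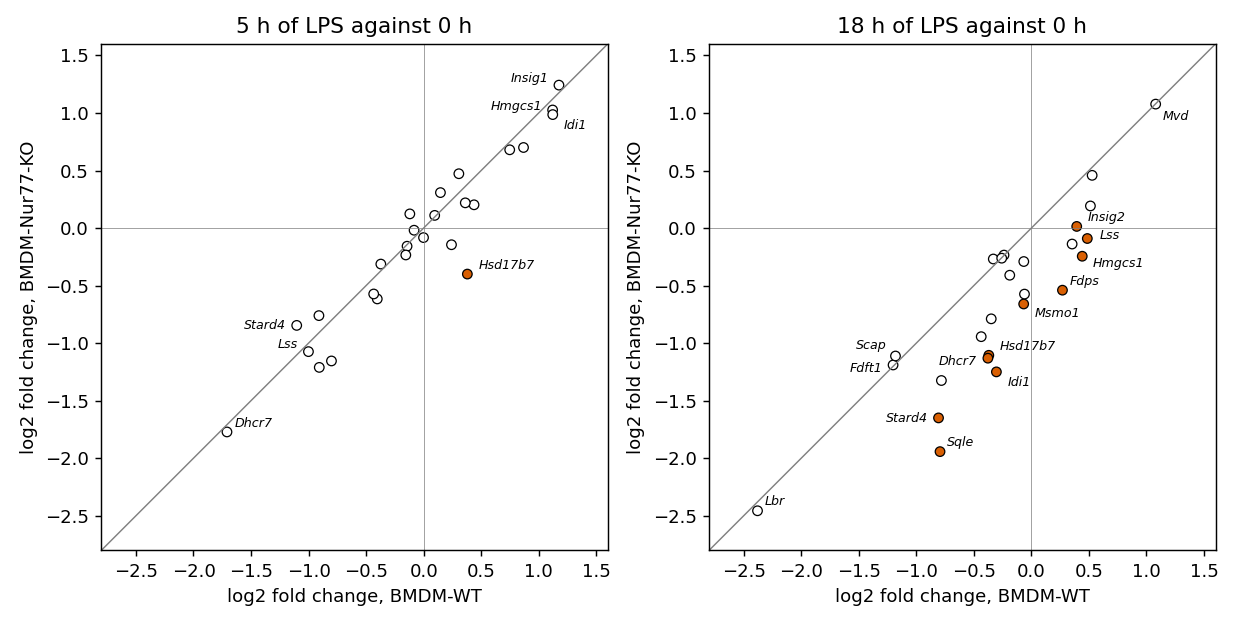
Log2 fold change of each member with LPS in BMDM-WT (horizontal axis) and in BMDM-Nur77-KO (vertical axis) at 5 h (left) and 18 h (right), with the diagonal where both are equal. Filled points had an interaction of genotype and LPS past the adjusted p. At 5 h Hsd17b7 is the filled point, and at 18 h the 10 filled points lie below the diagonal, Sqle furthest at −0.79 in BMDM-WT and −1.94 in BMDM-Nur77-KO.

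Whether the change with LPS differed between the genotypes was tested as an interaction term in the same edgeR model, called at an adjusted p under 0.05 with no limit on size. The response at 18 h differed for 10 of 26 members, all 10 with the lower response in BMDM-Nur77-KO, against 4.03% of all genes lower and 5.36% higher. DESeq2 also gave 10 lower and 0 higher, and at an unadjusted p under 0.05 edgeR gave 15 lower and 0 higher, against 9.87% and 11% of all genes. The median interaction of the members was −0.47 on the log2 scale, against 0.02 over all genes, and 4 of 26 lay above 0, against 52.2% of all genes. The 0 h libraries enter this term as well, so the higher level of some members in BMDM-Nur77-KO at 0 h is part of it. Sqle had the largest interaction among the members (−1.15 ± 0.17, adjusted p = 1.5e-05), followed by Idi1 (−0.95 ± 0.26, adjusted p = 0.018) and Stard4 (−0.84 ± 0.14, adjusted p = 0.00013). Idi1 was at 10.4, 7.08, 7.51 and 6.2 CPM at 0 h and 3.13, 2.85, 3.08 and 3.93 CPM at 18 h in BMDM-Nur77-KO, and at 6.56, 5.29, 4.84 and 5.44 CPM and 3.75, 4.96, 4.87 and 4.32 CPM in BMDM-WT. The genotypes overlapped at both times.

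The other interactions at 18 h were those of Fdps (−0.81 ± 0.26, adjusted p = 0.044), Dhcr7 (−0.75 ± 0.24, adjusted p = 0.039), Hsd17b7 (−0.73 ± 0.22, adjusted p = 0.028), Hmgcs1 (−0.69 ± 0.20, adjusted p = 0.028), Msmo1 (−0.59 ± 0.14, adjusted p = 0.0056), Lss (−0.58 ± 0.17, adjusted p = 0.031) and Insig2 (−0.38 ± 0.12, adjusted p = 0.039). Msmo1 was at 94.5, 78, 93.4 and 72.9 CPM in BMDM-Nur77-KO and at 70.4, 71.8, 64.4 and 72.1 CPM in BMDM-WT at 0 h, with each knockout library above each wild-type library. Sqle, Stard4 and Msmo1 passed in all 16 fits that left out 1 library, and Idi1 in 15, with an adjusted p of 0.053 without BMDM-Nur77-KO replicate 1 at 0 h. The other 6 were less certain, since Hsd17b7 passed in 11 of these fits, Lss in 9, Hmgcs1 in 7, Dhcr7 and Insig2 in 6 and Fdps in 5. With all genes of at least 1 count Fdps, Dhcr7, Insig2, Hsd17b7 and Lss no longer passed, and with a replicate block Fdps, Dhcr7 and Insig2 did not. After the GC correction Insig2 and Hsd17b7 did not pass, but other members did, so that the count was again 10 lower. The count of 10 in the main fit was 4 without BMDM-Nur77-KO replicate 1 at 0 h. It was 5 without BMDM-Nur77-KO replicate 3 at 0 h, BMDM-Nur77-KO replicate 3 at 18 h or BMDM-WT replicate 3 at 0 h. It was 6 without BMDM-WT replicate 1 at 0 h or BMDM-WT replicate 3 at 18 h. At 5 h the response in BMDM-Nur77-KO was higher for 0 members and lower for 1 by edgeR and by DESeq2 alike, against 1.72% and 1.37% of all genes, and an unadjusted p under 0.05 gave 0 and 2, against 9.31% and 5.87%. That member was Hsd17b7 (−0.78 ± 0.21, adjusted p = 0.035), which was at 8.24, 8.87, 6.65 and 8.34 CPM at 0 h in BMDM-WT and 10, 8.59, 8.58 and 7.87 CPM in BMDM-Nur77-KO, and it passed in 6 of 16 fits that left out 1 library. At 1 h 0 were called in either direction by edgeR or DESeq2, against 0.0443% higher and 0.0266% lower. An unadjusted p under 0.05 gave 1 higher and 2 lower, against 5.34% and 5.73% of all genes.

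Of the 5 genes that control SREBP, 0 were called between the genotypes by edgeR or by DESeq2 at any of the 4 times, where 1.36% to 5.7% of all genes were called in each direction, so that a count of 0 among so few genes says little. At an unadjusted p under 0.05, 2 were higher before LPS, 1 after 1 h and 2 after 5 h, and 1 was lower after 18 h. Over all genes, 12.4%, 8.58% and 21.2% were higher at the first 3 of these times, and 15.9% were lower after 18 h. Srebf2 was at 64.1, 64.8, 53.6 and 63.5 CPM in BMDM-WT and at 44.3, 46, 50 and 30.7 CPM in BMDM-Nur77-KO at 18 h. There was no overlap, and the log2 fold change was −0.52 ± 0.16, adjusted p = 0.016, under the limit on size. The lowest value, 30.7 CPM, is the GC-linked BMDM-Nur77-KO replicate 4, and without the 3 GC-linked libraries the log2 fold change was −0.45 (edgeR adjusted p = 0.00021). Srebf1, which encodes the SREBP isoforms known for fatty acid synthesis, was at 31.6, 36, 27.7 and 36.9 CPM and 30.3, 33.5, 34.4 and 12.6 CPM and overlapped (−0.25 ± 0.22, adjusted p = 0.45). Scap was at 15.6, 16.2, 14.4 and 16.6 CPM and 15.8, 16.4, 15.1 and 9.33 CPM and overlapped (−0.15 ± 0.19, adjusted p = 0.63). In both the lowest value is again that of BMDM-Nur77-KO replicate 4, and without the 3 GC-linked libraries the log2 fold changes were −0.09 for Srebf1 and −0.03 for Scap. Insig1 was at 48, 43.8, 48.5 and 44.9 CPM and 55.2, 47.6, 47.6 and 48.5 CPM and overlapped, with a 95% interval of −0.06 to 0.27 for the log2 fold change. Insig2 was at 28.4, 26.6, 32.2 and 30 CPM and 28.5, 29.6, 28 and 31.2 CPM, with an interval of −0.17 to 0.17.

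**Figure D5:**
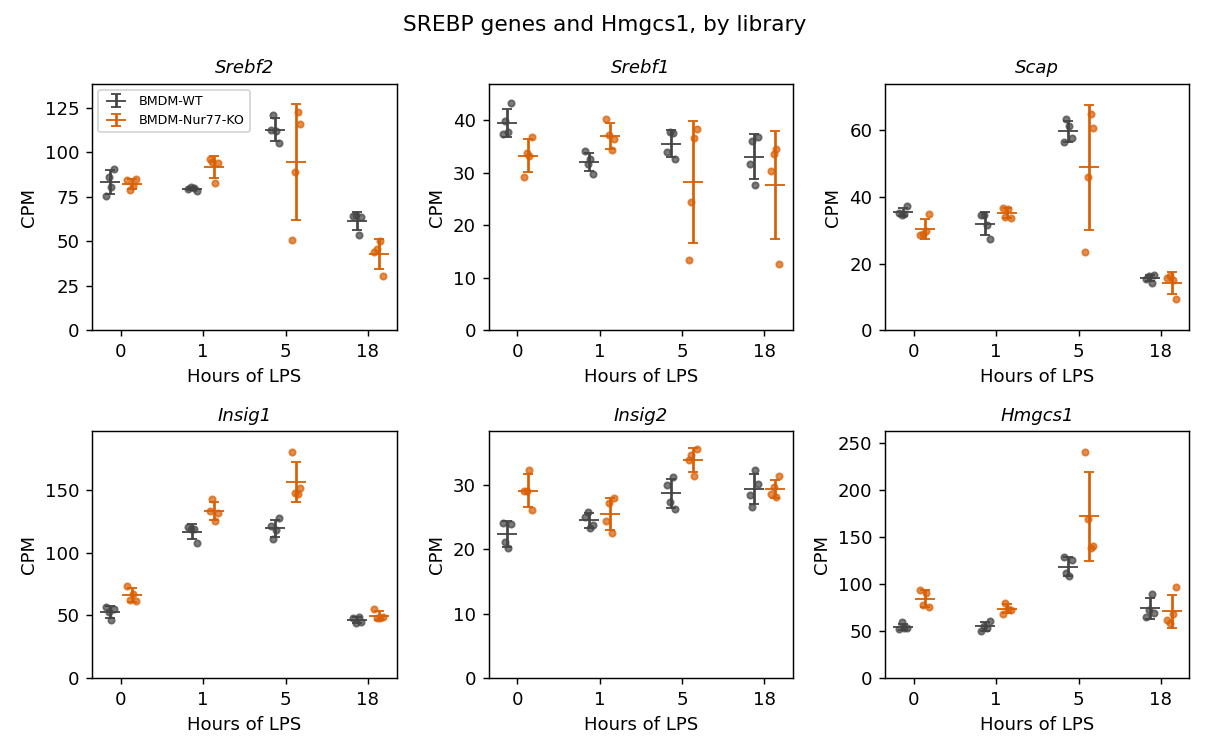
CPM of Srebf2, Srebf1, Scap, Insig1, Insig2 and, for comparison, the enzyme gene Hmgcs1, one panel a gene, against hours of LPS (evenly spaced categories). Points are libraries and bars are the mean and SD of 4 libraries (grey BMDM-WT, orange BMDM-Nur77-KO). Insig1 sits above 100 CPM at 1 and 5 h and near 50 CPM at 18 h in both genotypes. At 0 h it sits near 50 CPM in BMDM-WT and between 61.1 and 73.4 CPM in BMDM-Nur77-KO. The knockout libraries of Srebf2, Srebf1 and Scap spread widely at 5 h, with replicate 1 lowest.

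Neighbouring pathways are given for context, from lists compiled with results of these data known. Of 12 genes of SREBP processing and retention, 0 were called between the genotypes at 18 h in either direction by edgeR or DESeq2. Their median was 0.04, and over all genes 5.7% were called higher and 4.12% lower. At an unadjusted p under 0.05, 3 of them were higher and 2 lower, against 16.8% and 15.9% of all genes. In BMDM-WT 3 of them were called higher at 5 h of LPS, against 15.7% of all genes. Of 14 tested genes of fatty acid synthesis, 5 were lower and 0 higher in the knockout at 18 h, with a median of −0.47. These counts were the same by edgeR and by DESeq2, against 4.12% of all genes lower and 5.7% higher. An unadjusted p under 0.05 gave 12 lower and 0 higher, against 15.9% and 16.8%. Fads2, a desaturase of polyunsaturated fatty acids, was at 10.3, 7.05, 7.66 and 8.29 CPM in BMDM-WT and at 3.23, 3.03, 2.52 and 3.44 CPM in BMDM-Nur77-KO (−1.45 ± 0.13, adjusted p = 1.1e-09). Scd2, a stearoyl-CoA desaturase (−1.08 ± 0.10, adjusted p = 1.5e-09), and Fads1, a desaturase of the same path (−0.90 ± 0.09, adjusted p = 4e-09), were lower as well.

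Of 13 tested genes of sterol esterification, oxysterols and transport, 1 was called higher and 0 lower in the knockout at 18 h. The count was the same by edgeR and by DESeq2, against 5.7% of all genes higher and 4.12% lower. An unadjusted p under 0.05 gave 2 higher and 4 lower, against 16.8% and 15.9%. The gene called was Ch25h, which makes 25-hydroxycholesterol, an oxysterol known to hold SREBP in the endoplasmic reticulum. Ch25h was at 48.7, 42.5, 44.2 and 55.3 CPM in BMDM-WT and at 22.2, 23.5, 27.4 and 30.4 CPM in BMDM-Nur77-KO at 5 h, the knockout libraries all below the wild-type libraries (−0.88 ± 0.14, adjusted p = 4.1e-05). At 18 h it was at 2.93, 2.48, 2.78 and 2.94 CPM in BMDM-WT and at 16.2, 16.9, 24.1 and 15.2 CPM in BMDM-Nur77-KO, the order reversed and again without overlap (2.70 ± 0.18, adjusted p = 6.3e-13). Before LPS every library held 0 to 4 counts of Ch25h, which is near the floor of 3 counts, and at 1 h 7 to 10 counts. Its part in the lower enzyme genes at 18 h was not tested. In bulk RNA, fewer cells that express a gene and less RNA per cell cannot be told apart.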

How the data were processed

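RNA of 32 libraries was prepared with the KAPA mRNA HyperPrep kit and sequenced in pairs. Per the labels and the study's methods, the authors aligned reads to mm10 with HISAT2 2.1.0 and counted them per RefSeq transcript with HOMER, and CASAVA 1.8.2 is also named. The values they deposited are expected counts per transcript in steps of 0.5, not normalised, for 42361 transcripts, and were rounded to whole numbers here. Each gene was represented by its transcript with the highest mean count, which gave 25067 genes. The 11283 genes whose mean RPKM passed 1 in some group, all 26 members among them, were fitted in 1 model of 8 groups with edgeR 4.0.16 (R 4.3.3), TMM scaling, the quasi-likelihood test and Benjamini-Hochberg adjustment. Intervals use 24 residual degrees of freedom, and fold changes are given as log2 ± SE. The scripts were tested on simulated counts. Alternatives were DESeq2 1.42.0 and its size factors, all genes with at least 1 count, the compared libraries only, other limits on size, summed transcripts, a replicate block, and each library left out. A correction for transcript GC content and a fit without the 3 GC-linked libraries were chosen after seeing the data. Transcripts with no gene name held 0.233% to 1.373% of a library and were left out. The members, gene lists and tests were chosen with earlier results of these data known. The list of further isoprenoid and sterol enzymes is not reported here. Members called in a genotype comparison or interaction, and the 3 largest changes each way at 5 and 18 h of LPS in BMDM-WT, were given for every library.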

Additional observations from a re-analysis of the deposited data

Results flagged for a closer look

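Of 208 sets of 4 libraries (26 members in 8 groups), 17 held a library far from the other 3 by Dixon's test at 95%, where chance flags about 5%. For Hmgcs1, BMDM-WT replicate 2 at 0 h was at 59.7 CPM against 52.2 to 53.3 in the others. For Idi1, BMDM-Nur77-KO replicate 1 at 1 h was at 5.9 CPM against 6.86 to 7.06. For Ebp, BMDM-Nur77-KO replicate 2 was at 23.2 CPM at 0 h (26.6 to 27 in the others) and 25 CPM at 18 h (20.6 to 21.3). For Acat2, BMDM-Nur77-KO was at 9.48 CPM in replicate 2 at 1 h (6.76 to 7.02), 9.33 CPM in replicate 4 at 5 h (6 to 6.33) and 7.88 CPM in replicate 1 at 18 h (6.73 to 6.87). For Insig1, the library apart was at 180 CPM in BMDM-Nur77-KO replicate 1 at 5 h (146 to 151), 55.2 CPM in BMDM-Nur77-KO replicate 1 at 18 h (47.6 to 48.5) and 108 CPM in BMDM-WT replicate 4 at 1 h (118 to 121). For Srebf2, it was at 82.9 CPM in BMDM-Nur77-KO replicate 3 at 1 h (94.1 to 96.1) and 53.6 CPM in BMDM-WT replicate 3 at 18 h (63.5 to 64.8). For Stard4, it was at 35.7 CPM in BMDM-Nur77-KO replicate 1 at 0 h (27.1 to 28.1) and 17.2 CPM in BMDM-WT replicate 3 at 18 h (14.3 to 14.6). For Lbr, BMDM-WT replicate 2 at 0 h was at 34 CPM (35.2 to 35.4). For Ggps1, it was at 24.1 CPM in BMDM-WT replicate 4 at 5 h (20.2 to 20.8) and 36.8 CPM in BMDM-WT replicate 3 at 18 h (31 to 31.4).

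The response to LPS differed between the genotypes, by the interaction term of the edgeR model, for 10 members at 18 h. The interactions on the log2 scale were −1.15 for Sqle, −0.95 for Idi1, −0.84 for Stard4, −0.81 for Fdps, −0.75 for Dhcr7, −0.73 for Hsd17b7, −0.69 for Hmgcs1, −0.59 for Msmo1, −0.58 for Lss and −0.38 for Insig2. At 5 h it differed for Hsd17b7, at −0.78.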

How the results depend on the processing

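No call of a member changed direction under any alternative, but members' medians near 0 changed sign, as given below. Of 65 calls of members, 47 held under every alternative of scaling, test, filter and correction, and 42 with any 1 library left out. With no limit on the size of the change, the genotype counts became 4 higher at 0 h (from 1, over all genes 6.3%), 7 higher at 5 h (from 0, 13.5%) and 11 lower at 18 h (from 6, 9.79%). In BMDM-WT they became 2 lower at 1 h (from 0, over all genes 10.2%), 8 higher and 8 lower at 5 h (from 3 and 3, over all genes 30% and 40%), 7 higher and 11 lower at 18 h (from 1 and 3, 32.3% and 33.9%), and 8 higher and 10 lower from 5 to 18 h (from 3 and 5, 35.9% and 33.2%). In BMDM-Nur77-KO they became 7 higher and 9 lower at 5 h (from 2 and 4, over all genes 32.2% and 39.1%), 2 higher and 16 lower at 18 h (from 1 and 9, 33.7% and 35.5%), and 4 higher and 15 lower from 5 to 18 h (from 1 and 9, 34.9% and 33.9%). With the limits exchanged (1 between genotypes, 0.58 for LPS), 0 members were higher at 0 h, 0 lower at 5 h and 0 lower at 18 h between the genotypes. Over the 11283 genes tested, 92 were higher at 0 h, 94 lower at 5 h and 150 lower at 18 h between the genotypes. With these limits BMDM-WT had 5 members higher and 6 lower at 5 h, 6 lower at 18 h and 10 lower from 5 to 18 h. Over all genes, BMDM-WT had 2503 higher and 3318 lower at 5 h and 2715 lower at 18 h. From 5 to 18 h it had 2659 lower. BMDM-Nur77-KO had 5 members higher at 5 h and 3 higher from 5 to 18 h, against 2667 and 2755 of all genes. After the GC correction 0 members were higher between the genotypes at 0 h, with a median of 0.051 (from 0.123), and 2 were lower in BMDM-Nur77-KO at 5 h. The GC correction moved the members' median with LPS to 0.159 at 5 h (from −0.042), −0.156 at 18 h (from −0.248) and −0.304 from 5 to 18 h (from −0.111) in BMDM-WT, and to 0.097 at 5 h in BMDM-Nur77-KO (from −0.114). Without the 3 GC-linked libraries, BMDM-Nur77-KO had 1 higher and 2 lower at 5 h with a median of 0.009, the interaction at 1 h had 1 higher, and the median interaction at 5 h was −0.008 (from −0.076). DESeq2 called 2 lower between the genotypes at 5 h (from 1), and with its size factors the 5 h medians were 0.045 in BMDM-WT and −0.033 in BMDM-Nur77-KO (0.046 and −0.034 in its own test). Fitted to the compared libraries only, 0 were lower between the genotypes at 5 h, the 5 h median in BMDM-WT was 0.044, and 1 member had a higher interaction at 1 h. With all genes of at least 1 count, the interactions at 5 h and 18 h had 0 and 5 lower (from 1 and 10), and with summed transcripts the median from 5 to 18 h in BMDM-Nur77-KO was −0.395 (from −0.55).

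With 1 library left out, the genotype counts ran from 0 to 1 higher at 0 h (0 without BMDM-Nur77-KO replicate 1) and 0 to 1 higher and 1 to 3 lower at 5 h. The 6 lower at 18 h ran from 4 (without BMDM-Nur77-KO replicate 4) to 7 (without BMDM-Nur77-KO replicate 3). The medians ran from 0.059 to 0.154 at 0 h, −0.028 to 0.101 at 5 h and −0.367 to −0.269 at 18 h. The counts with LPS in BMDM-Nur77-KO ran from 0 to 1 higher at 1 h and 1 to 3 higher and 2 to 4 lower at 5 h (2 without replicate 1). They ran from 0 to 1 higher and 6 to 10 lower at 18 h, with 6 lower without replicate 4. From 5 to 18 h they ran from 1 to 2 higher and 7 to 9 lower. Their medians ran from −0.198 to 0.011 at 5 h and −0.646 to −0.452 from 5 to 18 h. The lower interactions ran from 0 to 1 at 5 h and from 4 to 9 at 18 h, and the median interaction from −0.006 to 0.088 at 1 h, −0.142 to −0.008 at 5 h and −0.545 to −0.367 at 18 h. Deviations of samples with the same replicate number had correlations of −0.699 to 0.46 between groups. In some libraries these deviations follow transcript GC content, so the correlations cannot decide whether the numbers pair the samples. With a replicate block the lower interactions at 5 h became 0 (from 1), with no other count of calls moved by over 1.5 times. The cause of these shifts was not tested. Depth limits the low members most: Mvk and Tm7sf2 lay under 6 CPM in every library.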
